A study of Rattus norvegicus with 10 samples.

Results

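The genes described here encode the enzymes of glycolysis, the pentose phosphate pathway and the tricarboxylic acid (TCA) cycle, with the enzymes that set pyruvate entry into mitochondria and the transcription factor Hif1a. The list names 47 genes by symbol, grouped by role. No measured value enters the rule, but the genes were chosen with earlier results of these data known. A gene was measured where a probe set of the Affymetrix rat genome array carries its symbol and no other, which held for 43 of the 47 genes. Hk3, Dlat and Fh had no probe set of that symbol, and Pkm had only 1 shared with another symbol, so these 4 genes were not analysed here. Gapdh lies only on Affymetrix control probe sets, which stayed out of the fit. The remaining 42 genes have 66 probe sets among the 31042 probe sets tested and among 14217 genes with a name, and the probe set with the highest mean signal over all arrays stands for a gene with several.

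Mye-macrophages (n = 5) were set against control macrophages (n = 5), with 1 array per sample. Both are resident peritoneal macrophages of Hsdcpb:WU rats, a Wistar stock, kept as adherent cells that were nearly all macrophages by the labels. Mye-macrophages were kept with myelin isolated from rat brain, at 100 µg/ml, for 3 days and then washed, while control macrophages received no myelin. Both groups were then stimulated for 9 hours with IFNγ and IL-1β, at 100 ng/ml, so no unstimulated sample enters the comparison. Signals are log2 values after RMA, which corrects the background of an array, equalises the arrays and summarises the probes of a set, so a difference of 1 is a doubling. A signal also depends on how well its probes hybridise so differences are taken only within a probe set, and a level set against the rest of an array is a rough guide to whether a transcript was detected.

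In glycolysis, glucose is phosphorylated, split into triose phosphates and turned into pyruvate, which either becomes lactate or enters mitochondria through the pyruvate dehydrogenase complex to feed the TCA cycle. The pentose phosphate pathway branches off after the first step, makes NADPH and supplies ribose 5-phosphate, from which phosphoribosyl pyrophosphate synthetases make the precursor of nucleotides. Macrophages stimulated with inflammatory signals are known to raise glycolysis, and Hif1a, the oxygen-regulated subunit of hypoxia-inducible factor 1, drives many glycolytic genes.

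The arrays had medians of 2.30 to 2.34. The macrophage markers Cd68 (mean signal 11.29), Lyz2 (12.27) and Tyrobp (10.27) were bright in both groups, while Cd163 (1.06), a marker of resident macrophages, had a low signal. Of 10 measured macrophage markers, Mrc1, the mannose receptor, was called higher in mye-macrophages (log2 fold change 0.71, adjusted p = 0.0265, 5 of 5 pairs). Of the other 9 none was called. Of these, 4 lay outside the variance filter described below, with unadjusted limma p-values from 0.064 for Cd68 to 0.87 for Lyz2. Of 11 measured oligodendrocyte and myelin genes, Mobp (log2 fold change 3.60) and Bcas1 (1.76) were higher in mye-macrophages on the probe set that stands for the gene, and a further probe set of Mbp was higher by 3.37. The other 9 genes were not called on the probe set that stands for them, but only 5 of the 11 lay in the variance filter. Of the 11, 8 were above 0. The remaining Mbp and Mobp probe sets ran from -0.20, on the brightest of Mbp, to 0.12. Transcripts of mast cells and of other cell types differed between replicate numbers. The samples with number 4 had the highest signal of each group for Cpa3, a mast cell gene, with 7.99 in mye-macrophages and 7.92 in control macrophages. The same held for the fibroblast marker Dcn, with 6.29 and 6.22. The macrophage marker Adgre1 was 7.21 to 7.49 in the samples of numbers 3 and 4, against 5.09 to 5.53 in the others. These arrays measure bulk RNA, in which fewer cells of a type and less RNA per cell cannot be told apart.

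Among the 42 genes, 1 was higher in mye-macrophages and none was lower. The gene that rose was Prps2, a phosphoribosyl pyrophosphate synthetase, on 2 of its 3 probe sets. The other 41 genes did not pass the test, among them Hif1a and every measured enzyme of glycolysis and the TCA cycle. Differences were small, with a median log2 fold change of 0.07 and a range of -0.13 for Ldhb to 0.53 for Prps2. In 24 genes the difference was under 0.1 on the log2 scale in size. The test was that of limma, blocked on the replicate number, with Benjamini-Hochberg adjustment at 0.05 over the 15521 most variable probe sets by interquartile range. This filter kept 40 of the 66 probe sets and 25 of the 42 genes on their brightest probe set, so that 17 genes varied too little to be given an adjusted p.

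Of the 40 probe sets kept, 2 were called higher and 0 lower. Over all 15521 probe sets, 0.792% were called higher and 1.9% lower, 2.69% in all, and of the named genes kept by the filter 1.12% were called higher and 1.58% lower. Before adjustment, 7 of the 42 genes were higher and 0 lower at a threshold of 0.05, against 6.44% higher among all named genes. Mye-macrophages were above control macrophages in all 5 pairs for 9 genes and below in all 5 pairs for none, where 7.76% of named genes were higher and 7.72% lower in every pair. Without the replicate block no probe set was called in either direction, in the list or on the whole array.

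Most of the small differences had the same sign. The log2 fold change was above 0 in 33 of the 42 genes (78.6%), against 51.9% of all named genes, whose median was 0.01. Among the 1911 named genes with a signal at or above the median of the list, 46.8% were above 0. This cut was applied to the named genes only, so it does not match the levels of all 42 genes. The excess over 0 was not even across the pairs, since the median difference of the 42 genes was 0.17 for number 1, 0.13 for number 2, 0.02 for number 3, 0.08 for number 4 and -0.02 for number 5. In pair 5 only 18 of the 42 genes were higher in mye-macrophages. The 3′ to 5′ signal gap of the beta-actin control probe sets, a measure of RNA integrity, also differed within pairs. In number 1 it reached 3.48 in the mye-macrophage sample against 2.66 in the control sample, and in number 4 it was 2.92 in both. In the other pairs it was 3.34 against 2.89 for number 2, 3.03 against 3.24 for number 3 and 3.71 against 3.41 for number 5. After adjustment for this gap the median of the 42 genes was 0.03, and the part of RNA integrity in the differences was not tested.

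**Figure D1:**
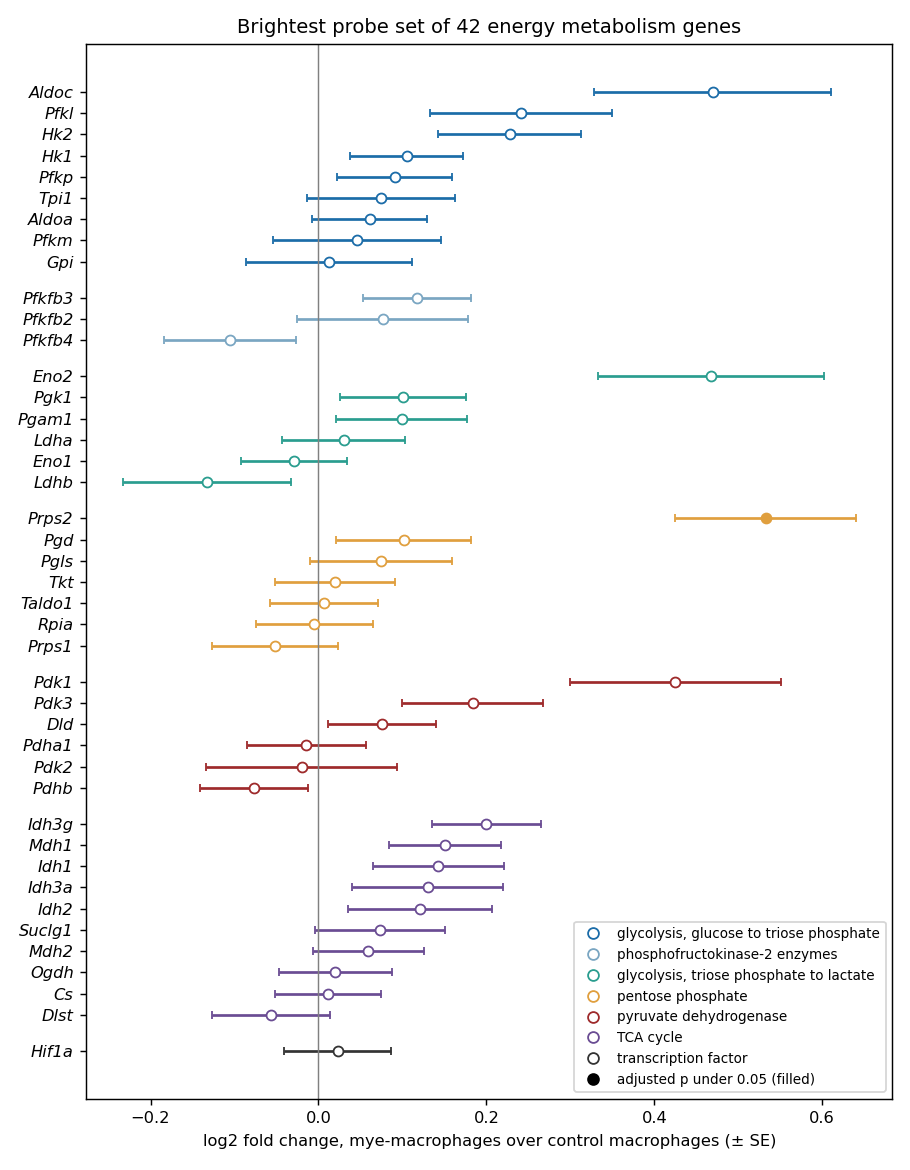
Log2 fold change of mye-macrophages over control macrophages (x axis, with standard error) for the brightest probe set of each of 42 genes (rows, grouped by role). Prps2 is the only filled point (adjusted p under 0.05), and 33 of the 42 points lie above 0, while 24 lie within 0.1 of it.

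The enzymes that use and supply pentose phosphates held the only call. Prps2, which joins ribose 5-phosphate with pyrophosphate from ATP, had signals of 5.91, 6.13, 5.73, 6.08 and 6.14 in mye-macrophages 1 to 5 on its brightest probe set, against 5.23, 5.16, 5.49, 5.79 and 5.66 in control macrophages 1 to 5. Every mye-macrophage sample was above the control sample of its number, and the groups overlapped only by mye-macrophages 3, which lay just under control macrophages 4. The SD over samples was 0.18 in mye-macrophages, against 0.27 in control macrophages (n = 5 each), and the log2 fold change was 0.53 with a standard error of 0.11, or 1.45-fold (limma, adjusted p = 0.0381). The further probe set read 5.66, 5.84, 5.18, 5.76 and 5.72 in mye-macrophages, against 4.73, 4.80, 4.62, 5.24 and 5.23 in control macrophages. Again all pairs ran one way, by 0.49 to 1.04, and a single mye-macrophage sample, number 3, reached into the range of control macrophages. Its log2 fold change was 0.71 with a standard error of 0.10, or 1.63-fold (limma, adjusted p = 0.0132). The dimmest Prps2 probe set lay outside the filter, with 1.90, 1.94, 1.95, 2.13 and 1.92 in mye-macrophages, against 1.87, 1.89, 1.69, 1.57 and 1.76 in control macrophages. There the groups did not overlap, as was so for 0.451% of all probe sets in this direction and 0.283% in the other, and the log2 fold change was 0.21.

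The Prps2 calls depended on the pairing, the covariate and single replicate numbers. Without the block the adjusted p was 0.534 for the brightest and 0.469 for the further probe set, and after adjustment for the beta-actin gap the log2 fold changes were 0.38 and 0.58 (adjusted p = 0.265 and 0.111). Leaving out number 1, 2, 4 or 5 gave the brightest probe set an adjusted p of 0.129, 0.0932, 0.0729 or 0.105, and leaving out number 1 or 2 gave the further one 0.0588 or 0.0510. Without the variance filter the brightest probe set had an adjusted p of 0.0763 and the further one 0.0264.

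Prps1, the paralogue of Prps2 with the same reaction, had signals of 5.97, 6.13, 5.67, 5.71 and 5.82 in mye-macrophages, against 6.21, 6.24, 5.67, 5.57 and 5.87 in control macrophages. These values overlapped widely, with a log2 fold change of -0.05 (SE 0.07, adjusted p = 0.737), and a dimmer Prps1 probe set gave -0.20 (adjusted p = 0.425). The difference between the Prps2 and Prps1 fold changes was 0.58 with a standard error of 0.19 and was above 0 in 5 of 5 pairs. The other pentose phosphate enzymes lay close to 0. Pgls, which opens the lactone made in the first step, had a log2 fold change of 0.07, and Pgd, the second NADPH-producing dehydrogenase of the pathway, had 0.10. Rpia, which makes ribose 5-phosphate, had -0.00 on its brightest and 0.12 on a further probe set. Tkt and Taldo1, which return pentoses to glycolysis, had 0.02 and 0.01.

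**Figure D2:**
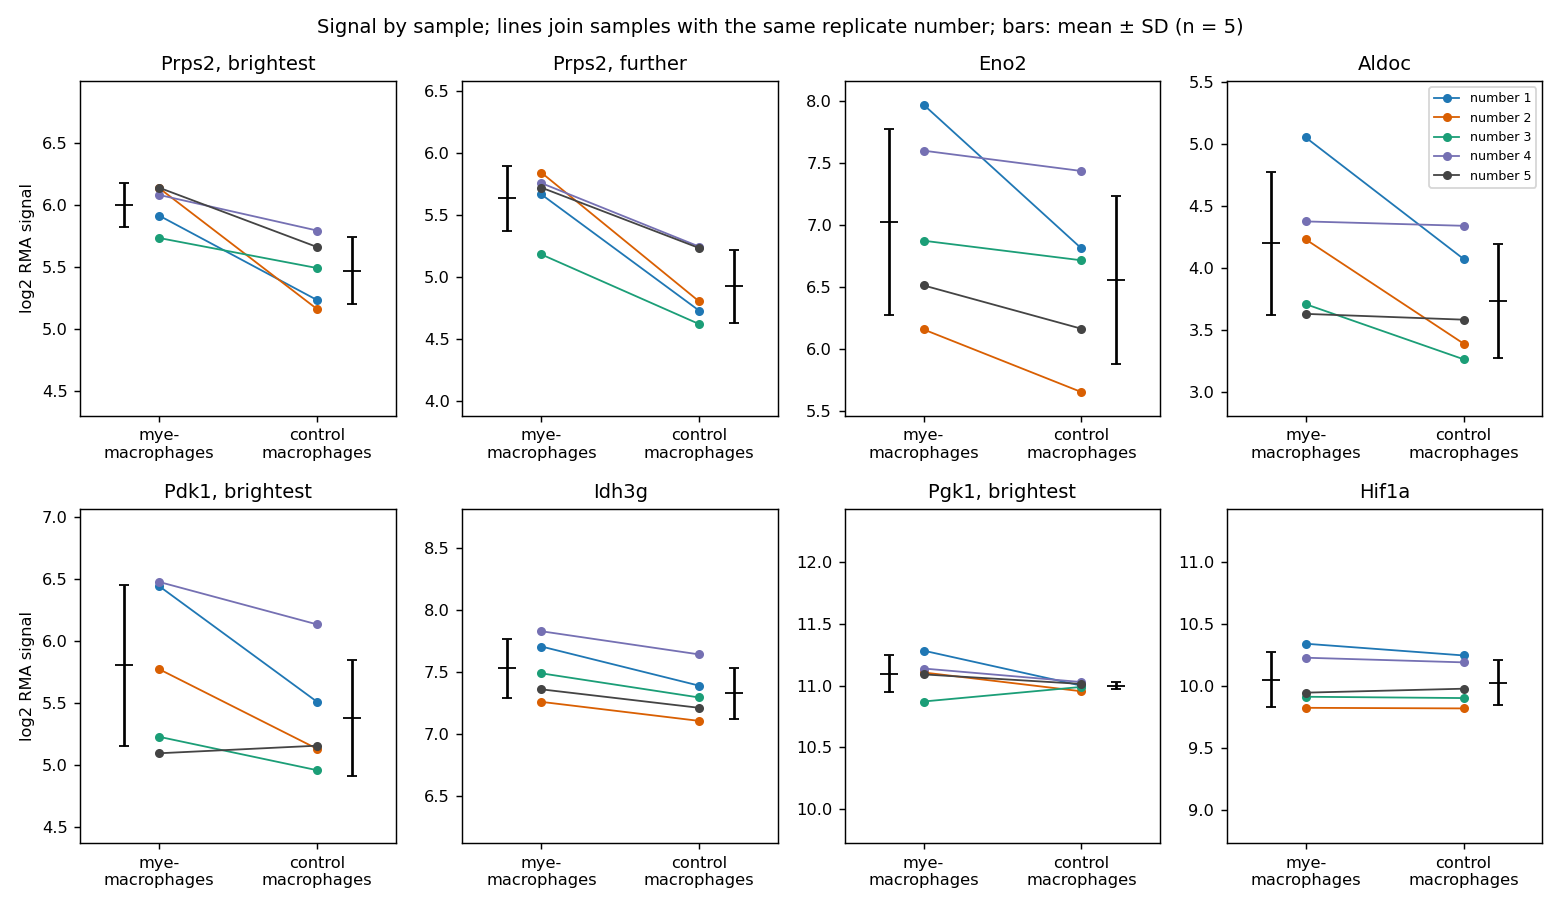
Log2 RMA signal (y axis, each panel spanning the same number of log2 units) of Prps2 on both called probe sets, Eno2, Aldoc, Pdk1, Idh3g, Pgk1 and Hif1a in the 5 mye-macrophage samples (left) and the 5 control macrophage samples (right). Lines join samples of the same replicate number and bars give the mean ± SD. The Prps2 lines all fall towards control macrophages, while the Eno2, Aldoc and Pdk1 panels are spread mainly between numbers.

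In glycolysis from glucose to triose phosphate all 9 measured genes had a log2 fold change above 0, with a median of 0.09, and none passed the test. The largest value was that of Aldoc, the aldolase isozyme best known from brain. Its signals were 5.05, 4.23, 3.71, 4.37 and 3.63 in mye-macrophages 1 to 5, against 4.07, 3.39, 3.26, 4.34 and 3.58 in control macrophages. The difference was large in pairs 1 and 2 and close to 0 in pairs 4 and 5, and the log2 fold change of 0.47 had a standard error of 0.14 (adjusted p = 0.113). Aldoa, the aldolase of most tissues, had a log2 fold change of 0.06. The difference between the Aldoc and Aldoa fold changes was 0.41 with a standard error of 0.20 and was above 0 in 3 of 5 pairs.

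Hexokinases trap glucose as glucose 6-phosphate. Hk2, the inducible form, had a log2 fold change of 0.23 (SE 0.09, adjusted p = 0.177) and was higher in 5 of 5 pairs, by 0.04 to 0.49. Hk1, the form found in most cells, had 0.10 on its brightest probe set (adjusted p = 0.415). The phosphofructokinase subunits, which form the committed step, had values of 0.24 for Pfkl (adjusted p = 0.252), 0.09 for Pfkp and 0.05 for Pfkm, and the dimmer Pfkm probe sets gave -0.10 and -0.08. Gpi (0.01) and Tpi1 (0.07), which interconvert sugar and triose phosphates, differed by less than their standard errors.

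The bifunctional enzymes of the Pfkfb family make and break fructose 2,6-bisphosphate, the activator of phosphofructokinase. Pfkfb3, whose kinase activity dominates, read 8.02, 8.40, 7.69, 7.60 and 7.79 in mye-macrophages, against 7.92, 8.24, 7.59, 7.55 and 7.62 in control macrophages. It was higher in every pair, but only by 0.05 to 0.17, so the groups overlapped almost fully and the log2 fold change was 0.12 (adjusted p = 0.338). Of the dimmer Pfkfb3 probe sets one ran the other way (-0.22, adjusted p = 0.358) and the other had 0.12. Pfkfb4 had a log2 fold change of -0.11 (adjusted p = 0.486) and Pfkfb2 one of 0.08, with further Pfkfb2 probe sets at -0.11, 0.06 and 0.07.

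The steps from triose phosphate to lactate produce ATP and pyruvate, and 4 of their 6 genes in the fit were above 0. Eno2, the enolase isozyme typical of neurons, had signals of 7.97, 6.16, 6.88, 7.60 and 6.52 in mye-macrophages 1 to 5, against 6.81, 5.65, 6.72, 7.44 and 6.17 in control macrophages. All 5 pairs were higher in mye-macrophages, by 0.16 to 1.16, and the pair of number 1 had the largest difference. The log2 fold change of 0.47 (SE 0.14) had an adjusted p of 0.102, the lowest of the genes that did not pass, and was 0.29 without number 1. Eno1, the enolase of most tissues, had a log2 fold change of -0.03, so that the Eno2 and Eno1 fold changes differed by 0.50 with a standard error of 0.19, above 0 in 5 of 5 pairs.

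Gapdh and Pgk1 differed little between groups. On the 3′ probe set Gapdh, which oxidises glyceraldehyde 3-phosphate, read 11.25, 11.05, 11.12, 11.15 and 11.05 in mye-macrophages, against 11.20, 10.99, 11.09, 11.11 and 11.07 in control macrophages. The samples followed each other by number, with a mean difference of 0.03 (two-sided exact permutation test, p = 0.125 by flipping the signs of the pairs, where 0.0625 is the smallest possible, and p = 0.548 by exchanging the group labels). Pgk1, the first ATP-producing enzyme, read 11.28, 11.11, 10.87, 11.14 and 11.09 in mye-macrophages, against 11.00, 10.95, 10.99, 11.03 and 11.01 in control macrophages. Control macrophages lay within 0.08 of each other, mye-macrophages were spread to both sides of them, and the log2 fold change was 0.10, outside the filter.

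Pgam1, which moves the phosphate of phosphoglycerate, had a log2 fold change of 0.10, and Ldha, the lactate dehydrogenase subunit of fast glycolysis, had 0.03. Ldhb, the subunit typical of heart, had the lowest value of the 42 genes. Its signals were 2.75, 2.64, 1.81, 1.80 and 1.82 in mye-macrophages, against 2.41, 2.85, 2.11, 2.11 and 2.00 in control macrophages. Numbers 1 and 2 were higher than the others in both groups, and the log2 fold change was -0.13 (SE 0.10, adjusted p = 0.493).

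Pyruvate dehydrogenase turns pyruvate into acetyl-CoA and is switched off when its kinases phosphorylate it. Among the kinases, Pdk1 read 6.44, 5.77, 5.22, 6.47 and 5.09 in mye-macrophages 1 to 5, against 5.51, 5.13, 4.96, 6.13 and 5.15 in control macrophages. Numbers 4 and 1 were the highest in both groups, and 4 of 5 pairs were higher in mye-macrophages. The log2 fold change was 0.42 (SE 0.13, adjusted p = 0.108), and a further probe set gave 0.41 (adjusted p = 0.103), higher in 5 of 5 pairs. Both Pdk1 probe sets passed only when the variance prior followed the mean signal and was robust to outlying variances (adjusted p = 0.0422 and 0.0438). Pdk3 had log2 fold changes of 0.18 (adjusted p = 0.257) and 0.20 (adjusted p = 0.147) on its probe sets, and Pdk2 had -0.02. The catalytic subunits lay at -0.01 for Pdha1 and -0.08 for Pdhb, and Dld, the subunit shared with the TCA cycle, at 0.08.

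The TCA cycle genes were above 0 in 9 of 10 cases, with a median log2 fold change of 0.10 and none past the test. Idh3g, a regulatory subunit of the NAD-dependent isocitrate dehydrogenase, had signals of 7.70, 7.26, 7.49, 7.83 and 7.36 in mye-macrophages, against 7.39, 7.10, 7.29, 7.64 and 7.21 in control macrophages. The pairs differed by a similar amount each, 0.15 to 0.32, which gave a log2 fold change of 0.20 (SE 0.07, adjusted p = 0.134), while the numbers differed by up to 0.55. Idh3a, the catalytic subunit of the same enzyme, had 0.13 (adjusted p = 0.454). The NADP-dependent isocitrate dehydrogenases of cytosol and mitochondria, Idh1 and Idh2, had 0.14 (adjusted p = 0.340) and 0.12 (adjusted p = 0.466).

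Mdh1, the cytosolic malate dehydrogenase, had a log2 fold change of 0.15 (adjusted p = 0.244) and was higher in 5 of 5 pairs, and the mitochondrial Mdh2 had 0.06. Suclg1, a subunit of succinyl-CoA ligase, had 0.07. Cs, which opens the cycle by making citrate, had 0.01 on its brightest probe set, whereas 3 further probe sets gave 0.06, -0.17 and 0.03. The subunits of the 2-oxoglutarate dehydrogenase complex had 0.02 for Ogdh and -0.06 for Dlst.

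Hif1a, whose protein is controlled mainly by oxygen-dependent breakdown, had signals of 10.34, 9.82, 9.91, 10.23 and 9.95 in mye-macrophages, against 10.25, 9.82, 9.90, 10.19 and 9.98 in control macrophages. Samples of the same number differed by -0.03 to 0.09, while numbers 1 and 4 were above the others in both groups. The log2 fold change was 0.02 (SE 0.06, adjusted p = 0.870).

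**Figure D3:**
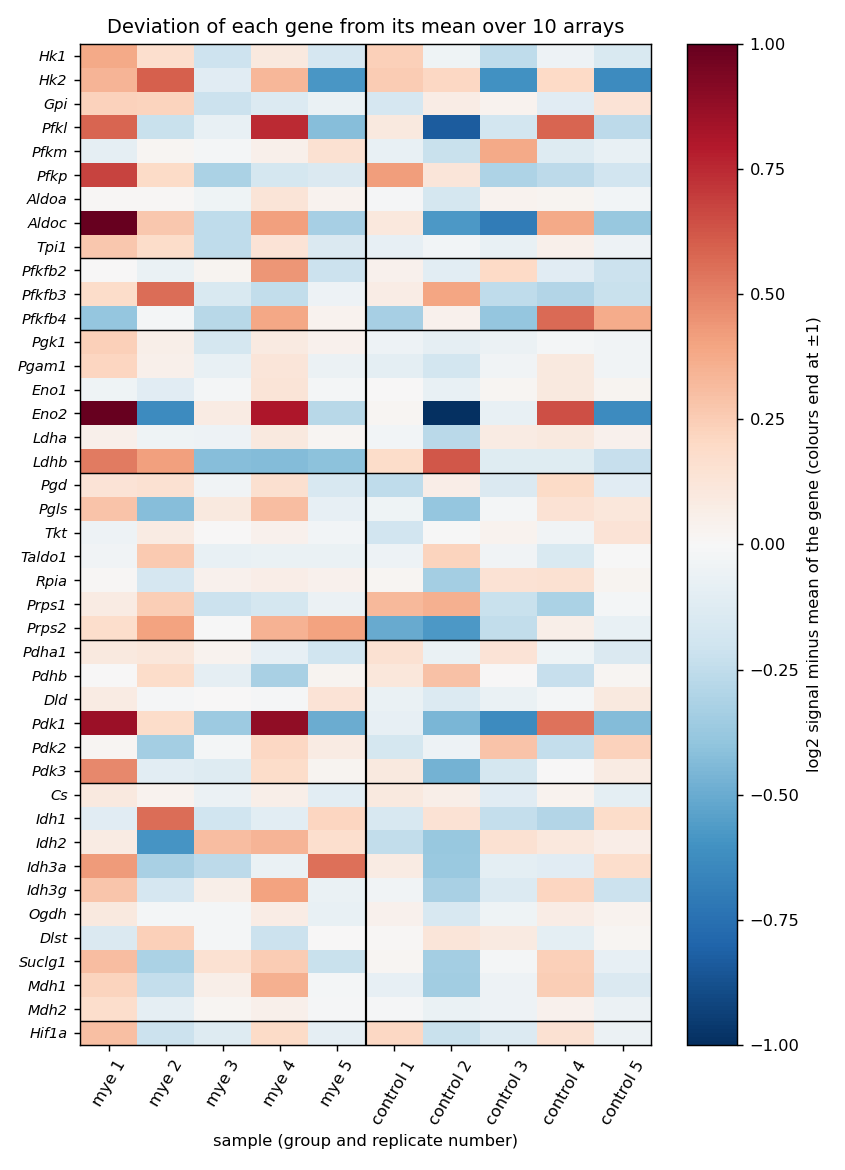
Deviation of the log2 signal of each of 42 genes (rows, grouped by role) from its mean over the 10 arrays, with mye-macrophages 1 to 5 left and control macrophages 1 to 5 right of the line. Columns of the same number share much of their colouring, such as the high Eno2, Pdk1 and Pfkl of number 4, while few rows are uniformly darker on one side.

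Levels of these genes also differed between replicate numbers. Taking the mean of both samples of a number, the 5 numbers spanned a median range of 0.43 over the 42 genes, against 0.33 over all named genes. The range exceeded the size of the log2 fold change in 41 of the 42 genes, as it did in 97.2% of named genes, and Prps2 was the exception. A range over 5 values tends to be wider than a difference between 2 means. A range of 0.8 or more was found in 8 of the 42 genes (19.0%), against 11.5% of named genes. Eno2 had the widest, 1.61, followed by Pdk1 (1.21), Pfkl (1.19), Aldoc (1.08) and Hk2 (1.01).

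Number 4 was the highest for 17 of the 42 genes (40.5%, against 26.7% of named genes), number 1 for 10, number 2 for 9, number 5 for 4 and number 3 for 2. Number 2 was the lowest for 20 genes (47.6%, against 29.8% of named genes), and each other number for 7 or fewer. For the 9 genes from glucose to triose phosphate the mean deviation from the gene means was 0.39, 0.16, -0.17, 0.18 and -0.19 in mye-macrophages 1 to 5, against 0.09, -0.16, -0.19, 0.07 and -0.18 in control macrophages. Numbers 3 and 5 were thus low in both groups, numbers 1 and 4 were high in both, and number 2 was high in mye-macrophages and low in control macrophages.

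Other transcripts moved with the same numbers. The mast cell protease gene Cpa3 had signals of 6.30, 2.83, 4.12, 7.99 and 4.72 in mye-macrophages, against 4.70, 3.19, 4.27, 7.92 and 5.26 in control macrophages, and Fcer1a, a subunit of the mast cell IgE receptor, was likewise highest in number 4, with 5.77 in the mye-macrophage and 5.69 in the control sample. Both were also well above their control sample in mye-macrophages 1, where Eno2, Aldoc and Pdk1 had their largest pair differences. The fibroblast marker Dcn, also highest in number 4, was lower in mye-macrophages 1 (1.94) than in control macrophages 1 (2.37). None of the 8 measured mast cell and granulocyte genes was called, and 7 of them lay in the variance filter. The summed linear signal of these genes ran from 26.0 to 347 in mye-macrophages and from 26.9 to 329 in control macrophages. Their part in the levels of Eno2, Aldoc and Pdk1 was not tested.

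Since Eno2 and Aldoc are known from brain and the myelin came from brain, the markers of brain cells are given beside them. None of 8 neuron markers was called, but only 2 of them lay in the variance filter and could be. Of the 8, 7 lay below the median signal of the array. The summed linear signal of the list ran from 20.7 to 22.5 in mye-macrophages and from 20.2 to 22.4 in control macrophages. Of 6 astrocyte markers, 3 were above 0, with a median log2 fold change of 0.01. Slc1a3 was called higher (log2 fold change 0.91, adjusted p = 0.0247), also with its highest signals in numbers 1 and 4. Gja1 ran the other way (-0.62, adjusted p = 0.141) and was higher in 1 of 5 pairs, while Gfap averaged 1.53 in mye-macrophages against 1.51 in control macrophages. The Mbp probe set that was called read 8.40, 8.32, 6.84, 6.27 and 7.17 in mye-macrophages, against 5.94, 3.95, 3.29, 3.43 and 3.53 in control macrophages. Number 1 was the highest in both groups, and its pair had the smallest Mbp difference (2.46) and the pair of number 2 the largest (4.37). Over pairs 1 to 5 the called Mobp probe set differed by 2.97, 5.28, 3.69, 2.50 and 3.56. Bcas1 differed by 2.13, 2.54, 1.49, 1.09 and 1.55. Both called Prps2 probe sets differed most in pairs 1 and 2, as did Bcas1 but not Mbp or Mobp. The study states that RNA carried in with the myelin did not cause the Mbp rise, as the myelin it added held negligible RNA (data not shown there). The part of myelin transcripts in the Prps2 signal was not tested here.

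**Figure D4:**
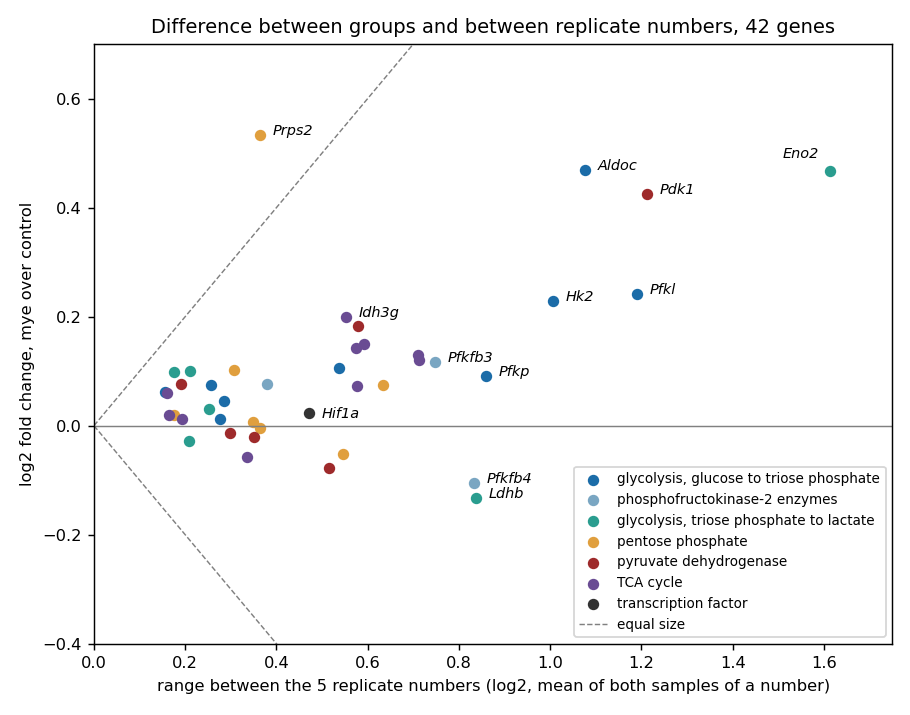
Log2 fold change of mye-macrophages over control macrophages (y axis) against the range between the 5 replicate numbers (x axis, log2, mean of both samples of a number) for 42 genes, coloured by role. The dashed lines mark equal size, and Prps2 is the only gene outside them, with 0.53 against a range of 0.36.

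Related enzymes that catalyse the same step were set against each other within pairs, in 8 contrasts of their log2 fold changes. With 5 pairs an exact sign-flip permutation test cannot go below p = 0.0625, and none of the contrasts could pass. That value was reached by Prps2 against Prps1 and Eno2 against Eno1, with an adjusted value of 0.25 for both over the 8 contrasts. Pdk1 exceeded Pdk2 by 0.44 (SE 0.19) and Pdk3 by 0.24 (SE 0.09), each in 4 of 5 pairs. Hk2 exceeded Hk1 by 0.12 (SE 0.09), Pfkl exceeded Pfkp by 0.15 (SE 0.12), and the Ldhb minus Ldha difference was -0.16 (SE 0.12).

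**Figure D5:**
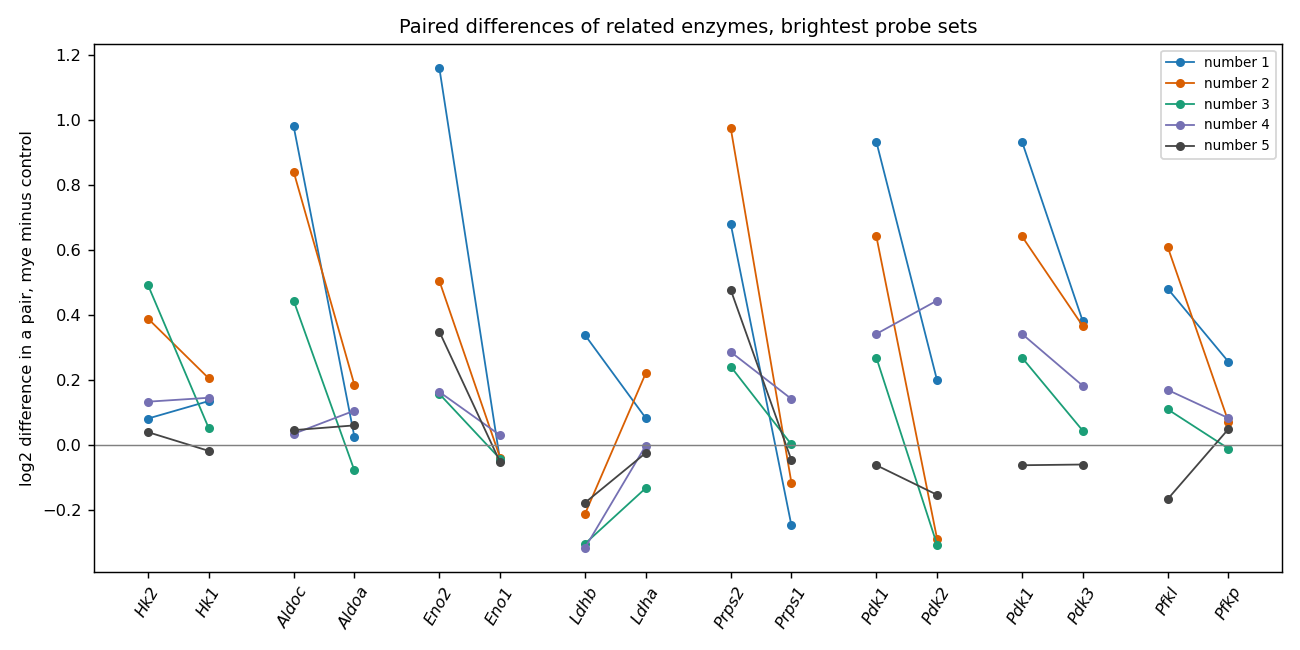
Difference between mye-macrophages and control macrophages in each pair (y axis, log2) for related enzymes drawn side by side, with a line for each replicate number. For Prps2 and Eno2 all 5 lines fall towards the related gene, whereas for Hk2, Aldoc and Pfkl they run both ways.

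Genes of the same pathways outside the list were read in the same fit. Of 44 measured further enzymes none was called, but only 23 lay in the variance filter and could be. Of the 44, 25 were above 0 and the median log2 fold change was 0.03. Pdhx, which binds the E3 subunit into the pyruvate dehydrogenase complex, had the largest value among them (0.35, adjusted p = 0.0752) and was higher in 5 of 5 pairs. H6pd, the hexose 6-phosphate dehydrogenase of the endoplasmic reticulum, had the lowest (-0.27, adjusted p = 0.295).

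None of the 8 measured regulators of Hif1a was called either, and 6 of them lay in the variance filter. Of the 8, 7 were above 0, and their median was 0.14. The values ran from -0.13 for Vhl, which marks Hif1a for breakdown, to 0.25 for Arnt, its dimerisation partner. Arnt had a mean signal of only 1.88 and was higher in 3 of 5 pairs, and 3 of the 8 regulators lay below the median signal of the array. Among 22 targets of hypoxia-inducible factors outside the list, 13 were above 0 with a median of 0.09. None was called, and 20 of them lay in the variance filter. Egln1 (0.24) and Egln3 (0.19) are counted both among these targets and among the regulators. Slc16a3, the lactate exporter, had the largest value (0.32, adjusted p = 0.246), with 9.62 in mye-macrophages 4 and 9.47 in control macrophages 4 as the highest signals of their groups. Ddit4 had the lowest (-0.25, adjusted p = 0.316).

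Hif1a binds DNA with Arnt at sites that hold the letters ACGTG or GCGTG. The 250 bases before the transcription start were searched for ACGTG on both strands in the RefSeq promoters of assembly GRCr8, and GCGTG was not searched. The letters were found in at least 1 promoter of 17 of the 44 listed genes with an entry (38.6%), against 18.1% of 27457 rat genes. The 14 measured genes with the letters had a median log2 fold change of 0.08, and the 25 without them had 0.07. Of the 14 genes, 8 differed by under 0.1.

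The promoters shown are those of Prps2 (chrX:30592595-30592844, plus strand), the only gene called, its paralogue Prps1 (chrX:108920413-108920662, plus strand), Eno2 (chr4:159267221-159267470, minus strand), which had the widest range between numbers, and Ldha (chr1:106507842-106508091, plus strand), which holds the letters and hardly differed between groups. Capitals mark ACGTG on either strand, written CACGT where it lies on the other strand, and the last base is the one before the start site.
Prps2: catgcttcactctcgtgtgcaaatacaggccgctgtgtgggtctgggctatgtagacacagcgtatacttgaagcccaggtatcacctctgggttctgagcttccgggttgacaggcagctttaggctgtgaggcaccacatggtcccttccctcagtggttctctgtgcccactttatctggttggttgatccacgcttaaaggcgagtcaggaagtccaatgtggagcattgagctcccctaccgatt
Prps1: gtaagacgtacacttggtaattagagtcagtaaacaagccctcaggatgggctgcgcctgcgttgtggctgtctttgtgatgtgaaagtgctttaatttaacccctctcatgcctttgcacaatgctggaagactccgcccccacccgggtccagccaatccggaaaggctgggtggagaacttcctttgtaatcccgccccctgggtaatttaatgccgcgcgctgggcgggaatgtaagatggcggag
Eno2: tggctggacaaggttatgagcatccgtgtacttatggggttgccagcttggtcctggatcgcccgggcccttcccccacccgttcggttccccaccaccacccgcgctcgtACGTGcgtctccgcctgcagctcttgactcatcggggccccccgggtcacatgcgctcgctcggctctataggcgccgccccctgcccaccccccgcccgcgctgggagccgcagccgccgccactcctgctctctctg
Ldha: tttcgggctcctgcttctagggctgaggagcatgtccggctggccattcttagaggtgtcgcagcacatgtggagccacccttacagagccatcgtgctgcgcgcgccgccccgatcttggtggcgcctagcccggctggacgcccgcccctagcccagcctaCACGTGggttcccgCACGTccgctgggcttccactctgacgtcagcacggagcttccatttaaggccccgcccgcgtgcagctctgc
The promoters of Prps2 and Prps1 had no match, that of Eno2 had 1 and that of Ldha had 3. The stretch CACGTG of Ldha reads ACGTG on both strands and was counted once for each. A match describes these letters only, and whether any protein binds there was not measured.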

How the data were processed

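The values deposited by the authors are log2 RMA signals made with the affy package from 10 Affymetrix rat genome arrays, and its version is not given in the sources used here. Array medians near 2.3 are low for RMA and were not explained in the sources. All 10 samples were used, 5 per group, and 57 control probe sets of Affymetrix were not fitted. Of 31042 probe sets, the array annotation of GEO gives 20826 a single gene symbol, 436 several and 9780 none.

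The fit was made in R 4.3.3 with the lmFit and eBayes functions of limma 3.58.1 on all probe sets, with the replicate number of the labels as a block, because the comparison was set as paired. The methods of the study used an unpaired test and name no adjustment, and that test was run as an alternative with the adjustment used here. Two-sided p-values were given a Benjamini-Hochberg adjustment (threshold 0.05) among the 50% most variable probe sets by interquartile range. Samples with the same number deviated together from their group means (correlations of 0.404 to 0.791, other pairs at most 0.279). The meaning of the numbers is not stated, nor whether samples came from separate animals. The p-values of the blocked fit set a group difference against the spread of the differences within these pairs, which may be technical. Precision is limited by the number of arrays.

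The genes and lists were chosen with earlier results of these data known. Every measured gene of the list could be named. Sample values are given for called genes, for genes with all pairs in one direction and a log2 fold change of 0.3 or more in size, for Gapdh, Pgk1 and Hif1a, and for the largest difference of each role. Prps1 and Ldhb values were added after they were seen. Pdk1, whose pairs did not all run one way on the brightest probe set, leads its role. Alternatives covered the block, the test, the filter, scaling, array weights, the variance prior, the beta-actin gap, the probe set per gene and each number left out. Exact permutation tests and promoter searches were run in Python 3.11.15.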

Additional observations from a re-analysis of the deposited data

Results flagged for a closer look

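Within a group of 5 samples, 7 of 94 gene and group combinations held a sample whose gap to the nearest other was over 0.71 of the group's range (Dixon's criterion), which chance gives in about 1 of 20. In mye-macrophages, Taldo1 was highest in number 2 (10.78, nearest other 10.48), and Rpia (7.21, nearest other 7.39) and Idh2 (5.93, nearest other 6.60) were lowest in number 2. The further Prps2 probe set was lowest in mye-macrophages 3 (5.18, nearest other 5.66). In control macrophages, Rpia (7.04, nearest other 7.40) and Aldoa (11.46, nearest other 11.61) were lowest in number 2, and Pfkm was highest in number 3 (2.47, nearest other 2.01). Of these 7 samples 5 carried number 2, and Rpia stood apart in both samples of that number.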

How the results depend on the processing

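The calls depended on the replicate block. All counts here are at an adjusted p under 0.05. Over the whole array 418 probe sets were called with the block, 0 without it, 0 with the methods' t-test and 11 with the block as a random effect. Of the listed genes' probe sets 2 were called with the block and 0 under each of these 3 settings, and of the genes 1 and 0. The study's methods name no such adjustment of the t-test, and its own list of top upregulated genes holds both of these Prps2 probe sets. Without the variance filter 128 probe sets were called, 1 of the listed probe sets and 0 of the genes on their brightest one. A variance prior that follows the mean signal and is robust to outlying variances, both changed together, gave 1041, 5 and 3. It added Pdk1 and Idh3g (adjusted p = 0.0362). The beta-actin gap as a covariate gave 16, 0 and 0. Leaving out numbers 1 to 5 in turn gave 31, 42, 659, 72 and 38 calls on the array, 0 to 2 of the listed probe sets and 0 to 1 of the genes. The causes were not tested. The median of the 42 genes stayed between 0.03 and 0.10 under all settings.

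Of 44 gene results, 26 kept their direction and side of the threshold under all 15 alternatives and 13 turned direction, none of them over 0.08 in size. With the beta-actin gap Gpi was -0.14, Pfkm -0.031, Tpi1 -0.051, Ldha -0.033, Tkt -0.015 and Prps1 0.032. With array weights Gpi was -0.017 and Pdk2 0.018. After quantile normalization Ldha was -0.0059, Taldo1 -0.014, Rpia 0.015 and Pdha1 0.0015. Leaving out a number, the ranges were -0.084 to 0.078 for Gpi, -0.0018 to 0.16 for Pfkm, -0.042 to 0.14 for Pfkfb2, -0.018 to 0.070 for Ldha, -0.0098 to 0.067 for Tkt, -0.012 to 0.023 for Taldo1, -0.049 to 0.021 for Rpia, -0.064 to 0.0082 for Pdha1, -0.14 to 0.051 for Pdk2, -0.00068 to 0.019 for Cs and -0.0098 to 0.052 for Ogdh. Dim probe sets such as those of Pfkm, Pfkfb2 and Ldhb limit what can be read from them.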
